A study of Mus musculus with 9 samples.

Results

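The cytosolic ribosome translates messenger RNA into protein, and each ribosomal protein below is a structural component of it. The members were chosen by gene name: protein-coding genes whose symbol is Rpl or Rps followed by a number, with a mean FPKM (fragments per kilobase of transcript, scaled to library size) of 0.5 or more over all libraries. That rule gave 78 of the 34310 genes in the table, 47 with large-subunit names (Rpl) and 31 with small-subunit names (Rps). It uses name, biotype and abundance, and no difference between groups. Of 84 genes that matched by name, 5 were not annotated as protein coding (Rps3a2, Rps3a3, Rps4l, Rpl6l and Rpl32l) and 1 lay below the abundance threshold. That gene, Rpl39l, had a mean FPKM of 0.0241 with 8 counts in LPS 2, 4 in LPS+Tβ4 3 and 0 in the other libraries, and the member nearest above the threshold was Rpl3l at 1.40.

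Poly(A) RNA from fresh mouse kidney was sequenced in 9 libraries from 3 groups of 3 mice. One group received saline, one received lipopolysaccharide (LPS, a bacterial cell wall component that provokes systemic inflammation), and one received LPS together with Tβ4 (LPS+Tβ4). Age, sex, strain, dose, route and time are not given in the labels, so they are not described here. LPS against saline asks what the endotoxin did to the tissue, LPS+Tβ4 against LPS asks what the second agent added, and LPS+Tβ4 against saline places the doubly treated kidneys beside the untreated ones. The 3 comparisons share libraries and are not independent of one another.

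Ribosomal proteins are made in matching amounts from many genes scattered over the genome, and in the nucleolus they join ribosomal RNA made by RNA polymerase I. Their messenger RNAs are short and abundant and typically begin with a cytosine followed by a run of pyrimidines, the 5′ terminal oligopyrimidine (TOP) motif. Through that motif the kinase mTORC1 and the RNA-binding protein Larp1 control translation and stability of these messages, so their RNA level alone does not report ribosome production.

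Start sites are shown for members named in the results and, as examples of a long run, for Rpl15 and Rps18, which were chosen for their sequence. Each line has 30 bases, 10 before and 20 after a RefSeq transcript start, read 5′ to 3′ on the gene's strand in GRCm38.p6. Capitals mark a run that begins with C exactly at the start and continues with at least 4 further C or T bases.
Rps6, chr4:86857348-86857377, minus strand: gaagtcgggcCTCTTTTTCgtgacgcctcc
Rpl15, chr14:18270967-18270996, minus strand: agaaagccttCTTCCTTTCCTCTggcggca
Rps18, chr17:33955646-33955675, minus strand: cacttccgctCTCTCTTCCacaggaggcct
Rpl35a, chr16:33056472-33056501, plus strand: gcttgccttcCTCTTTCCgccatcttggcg
Rps27, chr3:90213629-90213658, minus strand: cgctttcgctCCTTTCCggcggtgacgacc
Rps21, chr2:180257369-180257398, plus strand: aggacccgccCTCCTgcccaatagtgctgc
Rpl18, chr7:45718061-45718090, plus strand: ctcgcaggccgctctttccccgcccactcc
Rpl13, chr8:123102340-123102369, plus strand: tttcgcctgattttgattggcgtttgagat
Rpl12, chr2:32961702-32961731, plus strand: agcaggatccgtcttttcggctttcggctc
Rpl22l1, chr3:28805498-28805527, plus strand: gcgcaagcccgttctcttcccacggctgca
The last 4 lines hold no run at the annotated start. Rpl35a and Rps21 have further RefSeq starts, not shown, that hold no run. In the Rpl18 and Rpl22l1 windows, a C followed by at least 7 pyrimidines begins within 10 bases of it.

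RefSeq promoters (250 bases before to 50 after the start) were found for 59 of the 78 members, with 71 entries in all. Rps20 had no entry. The run at the exact start was present for 12 of 59 members (20.3%), 6 of 36 large-subunit and 6 of 23 small-subunit genes, against 3.01% of 27025 genes with a promoter. A longer run, C followed by at least 7 pyrimidines and beginning within 10 bases of the start on either side, was present for 23 of 59 members (39.0%) against 9.43% of genes. Both searches read the gene's strand only. CCGGAAGT, a motif of ETS-family transcription factors, searched on both strands, occurred in 11 members (18.6%) against 4.31% of genes. TATAAA, searched on both strands, occurred in 6 members (10.2%) against 15.7% of genes. These are matches of letters, the entries per gene vary in number, and annotated starts may differ from those used in kidney.

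Library totals ran from 52953654 to 62019631 counts, and the lowest count of any member in any library was 65. Kidney identity was checked with 10 proximal tubule genes, whose summed level in CPM (counts per 1000000 of the scaled library size) was 25705 to 27899 in saline, 5026 to 17276 in LPS and 4973 to 12635 in LPS+Tβ4. Libraries stood apart in other ways. Summed uroplakin transcripts of the urothelium (5 genes) were at 2.13, 87.0 and 74.5 CPM in saline, 55.1, 46.2 and 0.930 in LPS, and 1.03, 0.758 and 65.9 in LPS+Tβ4. Krt20, also listed as urothelial, was at 2.13, 3.61 and 7.12 CPM in saline, 576, 227 and 553 in LPS and 389, 78.5 and 75.6 in LPS+Tβ4. By the edgeR test described below, 9 of 9 neural and myelin genes were higher in LPS+Tβ4 than in saline, beside 12.3% of all tested genes. Their sum was 519 to 626 CPM against 62.7 to 70.0, while LPS had 31.4 to 185. Of 5 erythroid genes, 5 were lower in LPS+Tβ4 than in either other group. Among all tested genes 11.8% were lower against saline and 2.33% against LPS. The erythroid sum was 182 to 263 CPM against 536 to 707 in the others. Of 7 neutrophil and monocyte genes, 6 were abundant enough to test. In LPS against saline 4 were higher and 0 lower, beside 20.9% and 22.2% of all tested genes. The monocyte gene Ccr2 tended the other way, at 7.89, 6.03 and 3.11 CPM in saline and 1.18, 2.40 and 4.37 in LPS. The share of counts from the mitochondrial chromosome was 14.3% ± 1.69 (SD, n = 3) in saline, 9.04% ± 1.48 in LPS and 8.36% ± 0.773 in LPS+Tβ4. The part of these differences in the results below was not tested, except where a value with and without a library is given. In bulk tissue, fewer cells of a type and less RNA per cell cannot be told apart.

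Levels per length spanned 1.40 to 411 mean FPKM among the members, with a median of 90.5, and were similar in the large (88.6) and small (93.1) subunit. The most abundant small-subunit messages were Rps3a1, Rps15 and Rps2. Rps3a1, of the small-subunit platform, was at 330 ± 5.85 FPKM in saline, 474 ± 92.1 in LPS and 429 ± 42.6 in LPS+Tβ4 (mean ± SD, n = 3 throughout). Rps15, which sits near the decoding region of the small-subunit head, was at 383 ± 24.6, 408 ± 74.5 and 410 ± 17.3 FPKM. Rps2, which lies at the messenger RNA entry, was at 185 ± 21.0, 264 ± 88.0 and 321 ± 55.9 FPKM. For Rps15 the ranges of the groups overlapped in every comparison. Rps3a1 was higher in every LPS and LPS+Tβ4 library than in any saline library. On the count scale Rps3a1 did not pass edgeR's test against saline (adjusted p = 0.080 for LPS and 0.45 for LPS+Tβ4).

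The most abundant large-subunit messages were Rpl19, Rpl4 and Rpl10. Rpl19, whose protein helps bridge the subunits, was at 244 ± 21.1 FPKM in saline, 365 ± 64.4 in LPS and 325 ± 45.9 in LPS+Tβ4. Rpl4, which lines the peptide exit tunnel, was at 218 ± 3.02, 283 ± 39.1 and 296 ± 16.2 FPKM. Rpl10, which completes the large subunit late in maturation and borders the transfer RNA sites, was at 186 ± 8.40, 257 ± 18.7 and 281 ± 7.25 FPKM. All 3 had their lowest mean in saline, but on the count scale none passed edgeR's test in any comparison.

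Variation over the libraries was modest. The highest library exceeded the lowest by a median of 1.67-fold among the 78 members and by 2.63-fold among the 15015 genes tested, and 19 members exceeded 2-fold. The 2 sets were not matched for abundance: members had a median of 90.5 mean FPKM, and tested genes reach down to 0.5. The difference can therefore not be read as particular to the members. Rps3, which sits at the messenger RNA entry, was the most even at 1.17-fold, followed by Rpl7 at 1.25-fold and Rpl6 and Rps7 at 1.27-fold. Rpl13 had the widest span at 5.78-fold, then Rpl22l1 at 5.29-fold, Rpl3l at 3.74-fold, Rps27 at 3.44-fold, Rpl35a at 3.37-fold and Rps27l at 3.18-fold. These extremes were picked by their values.

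Much of that variation was shared. Summed over the 78 members, the level was 18098, 14474 and 14890 CPM in the 3 saline libraries, 16971, 21157 and 16150 in LPS, and 18788, 17529 and 17308 in LPS+Tβ4. Saline 1 lay within the range of the treated libraries, and LPS 2 was the highest of all. The group means were 15821 ± 1983 for saline, 18093 ± 2685 for LPS and 17875 ± 799 for LPS+Tβ4, and the ranges overlapped. Over 9 libraries, the median correlation between pairs of members was 0.57, and 43 of 78 members correlated above 0.7 with the median of the rest. Rpl31 (0.99), Rps16 (0.98), Rpl23 (0.96) and Rps13 (0.96) followed it most closely. Rpl17 (0.20), Rpl3 (0.22), Rpl7a (0.23) and Rpl13 (0.30) followed it least. These coefficients describe 9 points that share library scaling, and pairs of similar length share a pattern of deviations described below.

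**Figure D1:**
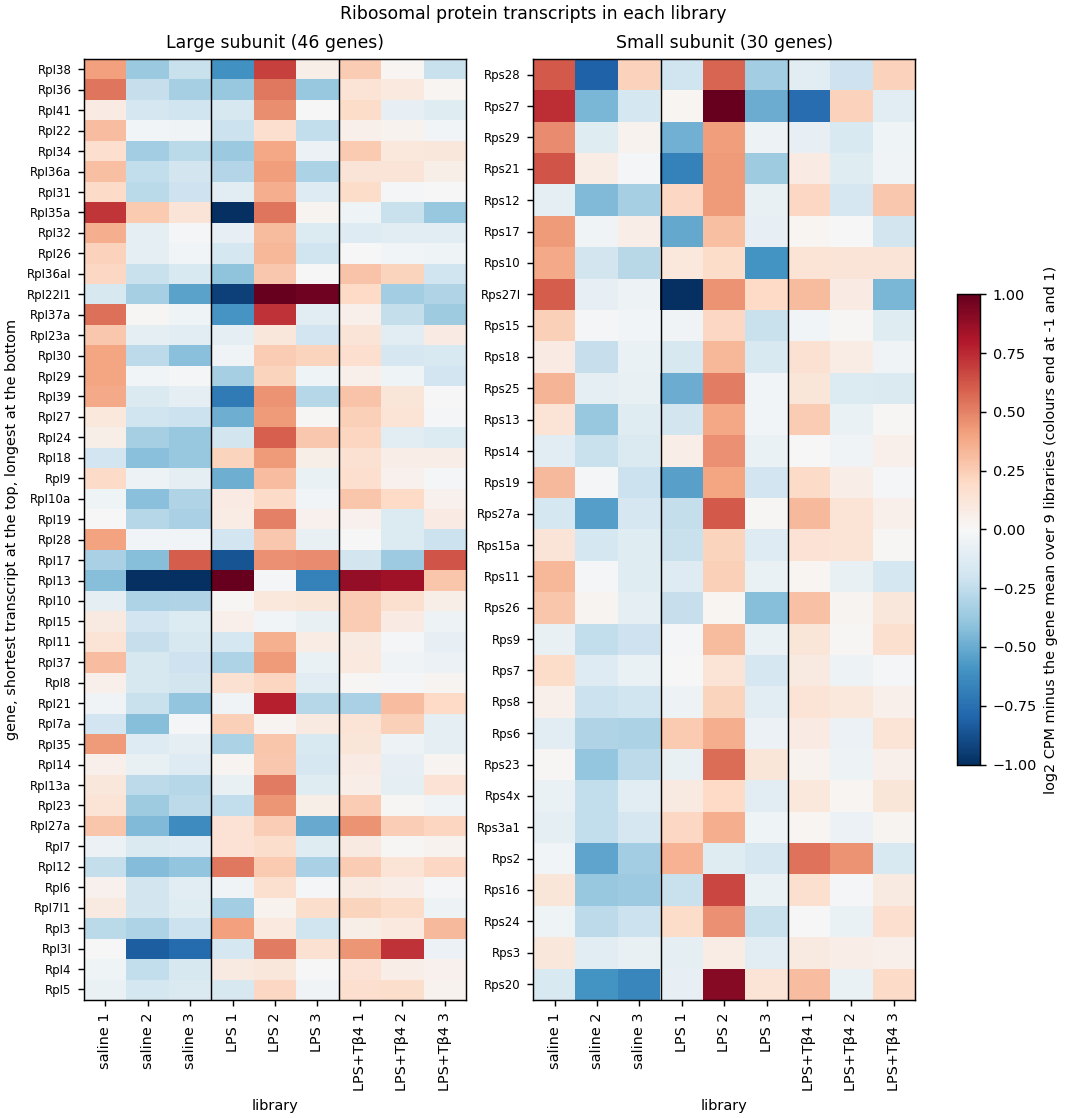
Each row is 1 of 76 members and each column a library. Colour is log2 CPM minus the gene's mean over 9 libraries, in log2 units, with colours ending at -1 and 1; the large (46 rows) and small (30 rows) subunits are ordered by transcript length. Saline 1 and LPS 2 stand above the other saline and LPS libraries, most of all in the rows of short transcripts.

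The balance of large to small subunit did not differ between groups beyond the spread. The summed CPM of large-subunit members divided by that of small-subunit members was 1.40, 1.41 and 1.37 in saline, 1.41, 1.35 and 1.44 in LPS, and 1.42, 1.41 and 1.40 in LPS+Tβ4. Group means were 1.39 ± 0.0188, 1.40 ± 0.0477 and 1.41 ± 0.0120, with differences smaller than the SD of the LPS libraries. The median log2 change from saline to LPS was 0.15 for the large subunit and 0.14 for the small, and from saline to LPS+Tβ4 it was 0.15 in both. Between LPS and LPS+Tβ4 the medians were -0.02 and -0.01.

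In LPS kidneys 4 of 78 members rose against saline (5.13%) and 0 fell, by edgeR's quasi-likelihood test with Benjamini-Hochberg adjustment over 15015 genes at 0.05. The background was 20.9% of all tested genes higher and 22.2% lower, and the members' shares lay below both. At an unadjusted p below 0.05, edgeR counted 13 members higher (16.7%, beside 25.4% of all genes) and 0 lower (beside 26.0% of all genes). DESeq2 called 15 members higher, where it called 24.8% of all genes higher and 24.0% lower. Limma on log2(FPKM + 1) called 15 members higher, where it called 23.1% of all genes higher and 17.8% lower. Neither called a member lower. The median change was 0.15 log2 units (quartiles -0.05 and 0.33), beside 0.02 over all tested genes, and 52 members were above 0 and 26 below. The median size of change regardless of sign was 0.19 for members and 0.61 for all genes, while the median standard error was 0.19 for members and 0.25 for all genes. Of those that rose, 1 was of the large subunit (1 of 47), Rpl18, and 3 of the small subunit (3 of 31), Rps20 and Rps6 among them.

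Rpl18 (ENSMUSG00000059070, chr7:45715457-45720836, plus strand) encodes a large-subunit surface protein and lies opposite Sphk2 in an overlap. Its level was 189, 162 and 166 CPM in saline and 251, 290 and 225 in LPS, a rise of 0.57 ± 0.13 log2 units (± SE, adjusted p = 0.0096). In LPS+Tβ4 it was 240, 226 and 227 CPM. Every treated library was above every saline library, and LPS+Tβ4 lay at the lower end of LPS. This call was kept in 24 of 25 alternative settings and lost with the summed level of 6 urothelial genes as a term (the urothelial term, adjusted p = 0.070). With that term the rise was 0.74 ± 0.22 log2 units. The 6 genes summed to 4.26 to 90.6 CPM in saline and 273 to 631 in LPS, so the term cannot be separated from treatment.

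Rps20 (ENSMUSG00000028234, chr4:3831334-3835665, minus strand), also of the small-subunit head, was at 135, 99.0 and 95.5 CPM in saline. It was at 142, 284 and 166 in LPS and 186, 144 and 172 in LPS+Tβ4. LPS 1 barely cleared saline 1, and LPS 2 was far above the rest. The rise to LPS was 0.84 ± 0.27 log2 units (adjusted p = 0.033), and it did not pass without LPS 2 (0.54 ± 0.20, adjusted p = 0.074), without saline 2 (adjusted p = 0.10) or without saline 3 (adjusted p = 0.094).

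Rps6 (ENSMUSG00000028495, chr4:86854660-86857412, minus strand) encodes the small-subunit protein phosphorylated by S6 kinases downstream of mTORC1. Its start window above holds a run of 9 pyrimidines at the annotated start. It was at 390, 342 and 340 CPM in saline, 506, 543 and 406 in LPS and 446, 406 and 464 in LPS+Tβ4. LPS 3 was only slightly above saline 1. The rise to LPS was 0.44 ± 0.16 log2 units (adjusted p = 0.048), next to the threshold, and it was lost in 13 of 25 alternative settings. Among them was leaving out any 1 saline library, LPS 1, LPS 2, LPS+Tβ4 1 or LPS+Tβ4 2 (adjusted p from 0.052 to 0.14).

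**Figure D2:**
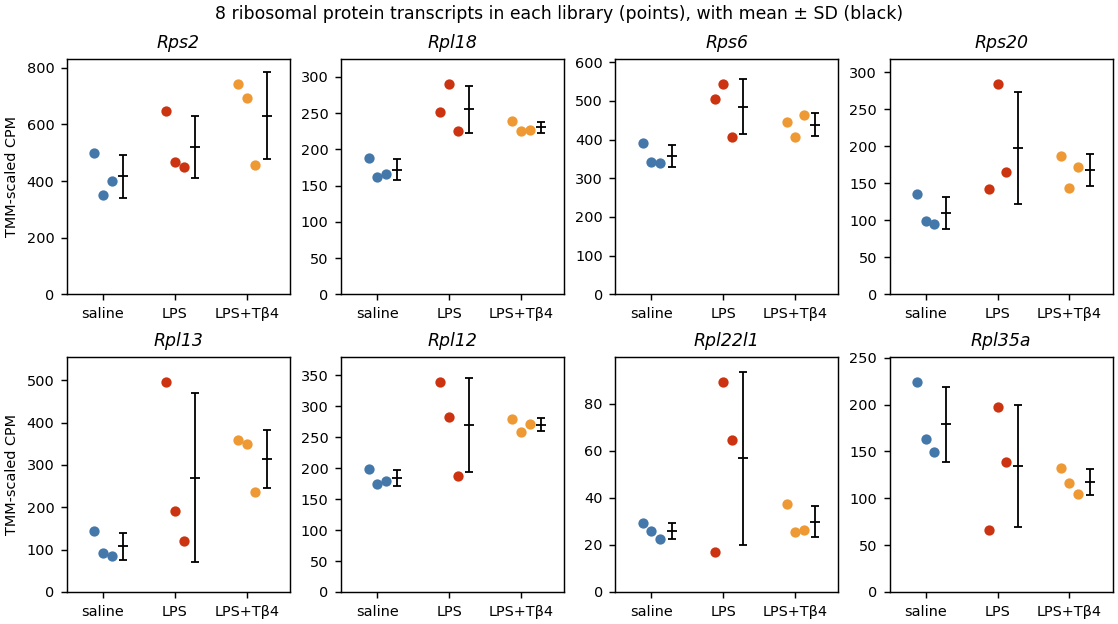
CPM (linear axis from 0) in each library for 8 members, with points for the 3 libraries of each group and bars for mean ± SD. Rpl18 and Rps6 have saline as the lowest group, LPS 2 is the highest library for Rps20 and Rpl22l1, and Rpl13 runs from 85.9 to 496.

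The count of rises depended on single libraries and on scaling. It was 8 without saline 1, 1 without saline 2, 2 without saline 3, 8 without LPS 1, 2 without LPS 2 and 10 without LPS 3. Without both number 3 libraries of the LPS groups, which differ from their groups in uroplakins, it was 13. A uroplakin term gave 6, and the urothelial term gave 0. The sum behind the urothelial term is dominated by Krt20 in LPS and was higher in every LPS library than in any saline library. That term therefore cannot be separated from treatment. Scaling by library totals alone gave 16, with the median of all tested genes moving to 0.17 and that of members to 0.29, a difference of 0.12. Across all 25 alternatives, 36 different members passed at least once, and each was higher in LPS except Rps21, lower without LPS 2 (-0.72 ± 0.23, adjusted p = 0.043). The share of all tested genes called with a library left out, or with these terms and scaling, is not given here. These moves can therefore not be read as particular to the members.

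Ranges of the 3 LPS and 3 saline libraries were apart for 15 members higher in LPS (19.2%; 25.8% of all tested genes) and for 0 lower (28.5%). The 15 comprised 8 large-subunit genes, among them Rpl3, Rpl4, Rpl7a, Rpl10, Rpl10a, Rpl18 and Rpl19, and 7 small-subunit genes, among them Rps3a1, Rps6, Rps9, Rps12, Rps14 and Rps20. Rpl10 was at 513, 444 and 447 CPM in saline and 554, 590 and 598 in LPS, a difference of 0.31 ± 0.14 (adjusted p = 0.10). Rpl19 was at 352, 288 and 280 CPM against 370, 499 and 362, a difference of 0.42 ± 0.17 (adjusted p = 0.083). Rps12 was at 78.9, 62.2 and 66.8 CPM against 97.5, 114 and 80.4, a difference of 0.49 ± 0.18 (adjusted p = 0.053). For Rps12 and Rpl7a the counts are uncertain, since pseudogenes named after them took 48.0% and 54.7% of the combined counts.

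Other members, chosen after their values were seen, had large differences that did not pass. Rpl13, of the large subunit, was at 144, 92.4 and 85.9 CPM in saline and at 496, 192 and 121 in LPS. LPS 3 lay under saline 1, and the difference was 1.33 ± 0.48 (adjusted p = 0.054). Rpl12, of the stalk base where elongation factors dock, was at 199, 174 and 178 CPM in saline and 339, 282 and 188 in LPS, where LPS 3 again overlapped saline (0.55 ± 0.20, adjusted p = 0.056). Differences in the other direction were largest for Rpl35a, with 224, 164 and 149 CPM in saline against 66.6, 197 and 139 in LPS (-0.42 ± 0.35, adjusted p = 0.36). Rps21 had 103, 69.7 and 65.6 CPM against 41.2, 89.1 and 51.8 (-0.39 ± 0.29, adjusted p = 0.31). In both, LPS 1 was the lowest of all libraries.

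**Figure D3:**
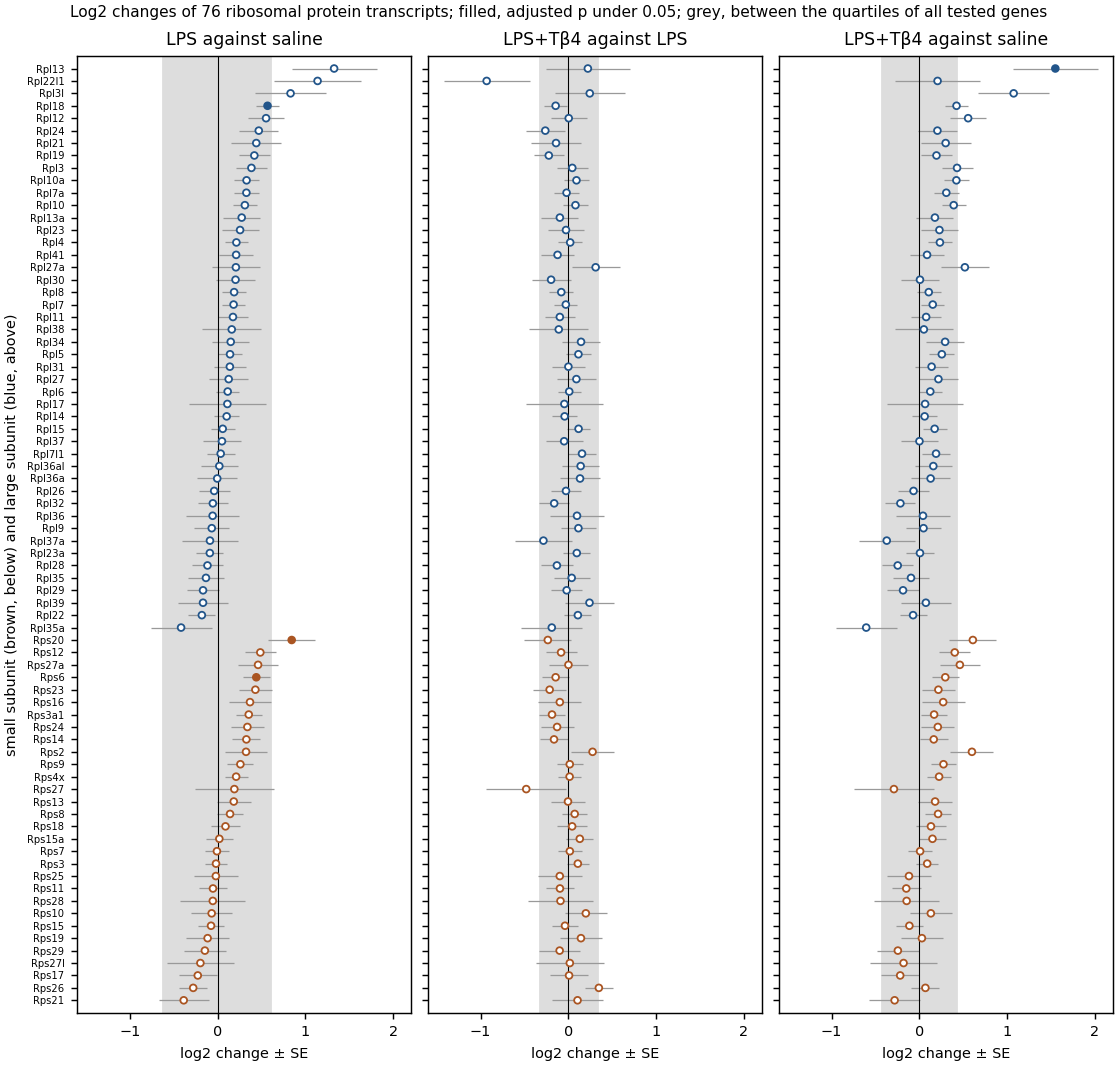
Log2 change ± SE of 76 members in each of the 3 comparisons, with filled points for an adjusted p below 0.05 and a grey band between the quartiles of all 15015 tested genes. There are 3 filled points for LPS against saline, 0 for LPS+Tβ4 against LPS and 1 for LPS+Tβ4 against saline, and most members lie inside the band.

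Adding Tβ4 to LPS changed 0 of 78 members in either direction by edgeR's test. The background was 4.5% of all genes higher and 2.33% lower, 6.83% together. At an unadjusted p below 0.05 edgeR also counted 0 members, where 13.5% of genes were higher and 11.5% lower, and DESeq2 and limma called 0. DESeq2 called 9.12% of all genes higher and 7.14% lower. The shares by limma on log2(FPKM + 1) were 5.05% and 1.67%. The median change was -0.01 log2 units in members and in all tested genes, with 36 members above 0 and 42 below. The median size of change was 0.11 against 0.33, and the median standard error was 0.19 in members, so a shift of the size seen in most members was not detectable with 3 libraries a group.

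The lowest adjusted p in that comparison was 0.22, for Rps26, a small-subunit protein at the messenger RNA exit that contacts the leader upstream of the start codon. Rps26 was at 142, 169 and 123 CPM in LPS and 203, 169 and 179 in LPS+Tβ4, beside 201, 169 and 155 in saline (0.35 ± 0.16). Its LPS+Tβ4 range lay just above that of LPS, as for 1 of 78 members (14.4% of all tested genes). The LPS+Tβ4 range lay below that of LPS for 1 member (11.9% of all tested genes). Rpl22l1 was at 16.9, 89.3 and 64.4 CPM in LPS and 37.4, 25.6 and 26.4 in LPS+Tβ4 (-0.93 ± 0.49, adjusted p = 0.28). Without LPS 1 it was lower in LPS+Tβ4 by edgeR (-1.37 ± 0.22, adjusted p = 0.0082), the 1 call made over 25 alternatives. Neural genes were high and erythroid genes low in LPS+Tβ4, as given above, and their part was not tested.

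Against saline, 1 of 78 members, Rpl13, rose in LPS+Tβ4 and 0 fell. The background was 12.3% of all genes higher and 11.8% lower. At an unadjusted p below 0.05, edgeR counted 9 members higher (11.5%, beside 18.4% of all genes) and 0 lower (beside 18.3% of all genes). DESeq2 called 9 members higher, where it called 16.0% of all genes higher and 14.8% lower. Limma on log2(FPKM + 1) called 13 members higher, where it called 16.4% of all genes higher and 8.84% lower. Neither called a member lower. The median change was 0.15 log2 units beside 0.00 over all genes, with 61 members above 0 and 17 below. Ranges were apart for 17 members higher (21.8%; 24.7% of all tested genes) and for 2 lower (26.2% of all tested genes), Rpl32 and Rpl35a, where 50.9% of all tested genes were apart in either direction.

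Rpl13 (ENSMUSG00000000740, chr8:123102350-123105244, plus strand) was at 358, 349 and 235 CPM in LPS+Tβ4 against 144, 92.4 and 85.9 in saline, a rise of 1.55 ± 0.49 log2 units (adjusted p = 0.049). All 3 LPS+Tβ4 libraries were above saline, and the LPS libraries, at 496, 192 and 121, enclosed them. The call was lost in 13 of 25 alternatives, among them without any 1 of the 3 saline or 3 LPS+Tβ4 libraries (adjusted p from 0.063 to 0.14) and without LPS 2 (adjusted p = 0.056). The count of rises ranged from 0 to 6 when 1 library was left out. It was 3 without saline 1, 0 without saline 2 or saline 3, 6 without LPS 1, 3 without LPS 2 or LPS 3, and 0 without any 1 LPS+Tβ4 library. Without both number 3 libraries of the LPS groups it was 3. With library totals alone it was 13, where the median of all genes moved to 0.20 and that of members to 0.36, a difference of 0.15. The share of all genes called in these settings is not given, so the moves cannot be read as particular to the members.

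Members that rose with LPS alone had smaller values here. They were picked for passing in LPS against saline, and that choice alone can give smaller values in another comparison. Rpl18 differed from saline by 0.42 ± 0.13 log2 units (adjusted p = 0.051), Rps20 by 0.61 ± 0.27 (adjusted p = 0.14) and Rps6 by 0.30 ± 0.15 (adjusted p = 0.20). None of these 3 differed between LPS and LPS+Tβ4 by the test, which compares those groups directly. Rpl10 reached 656, 613 and 572 CPM in LPS+Tβ4 (0.39 ± 0.14 against saline, adjusted p = 0.073). Rps2 reached 742, 695 and 457 CPM in LPS+Tβ4, from 499, 351 and 400 in saline (0.60 ± 0.24, adjusted p = 0.11). Rpl35a was at 132, 117 and 104 CPM, under every saline library, without passing the test (-0.61 ± 0.35, adjusted p = 0.24).

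Transcript length went with the pattern among the members. Lengths, taken as the shortest complete principal coding transcript, ran from 271 to 3706 bases with a median of 705. These are annotated lengths, and the messages present in kidney may differ. The longest, 3706 bases for Rps20, takes up most of the gene span given above, so its length class is uncertain. For LPS against saline the median log2 change was -0.06 in 17 members of up to 500 bases, 0.00 in 22 of over 500 and up to 700, 0.22 in 16 of over 700 and up to 900, and 0.28 in 23 longer ones. For LPS+Tβ4 against saline the medians were -0.07, 0.07, 0.20 and 0.22. For LPS+Tβ4 against LPS they stayed between -0.05 and 0.00. Across 78 members, Spearman's rho of change with length was 0.47 for LPS against saline, 0.55 for LPS+Tβ4 against saline and 0.07 for LPS+Tβ4 against LPS. With mean FPKM it was 0.08, -0.00 and -0.17. Members are not independent points and share the same libraries.

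Other short coding transcripts showed the same order at lower levels. For LPS against saline their medians were -0.40 in 111 genes of up to 500 bases, -0.19 in the next 262 (up to 700 bases), -0.07 in the next 406 (up to 900 bases) and 0.02 in 11826 longer ones. Members lay above other genes in each of these classes. By library, the shortest members deviated from their means by 0.41, -0.19 and -0.18 log2 units in saline, -0.29, 0.42 and -0.13 in LPS and 0.13, 0.01 and -0.03 in LPS+Tβ4. The shortest other genes deviated by 0.32, 0.09 and 0.12, then -0.42, 0.23 and -0.20, then 0.02, -0.04 and -0.10. Saline 1 and LPS 2 were thus high, and LPS 1 low, in short transcripts of both kinds. Members over 900 bases still had LPS 2 highest (0.26) and saline 2 lowest (-0.26), whereas other genes over 900 bases spanned 0.07 log2 units over all libraries.

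**Figure D4:**
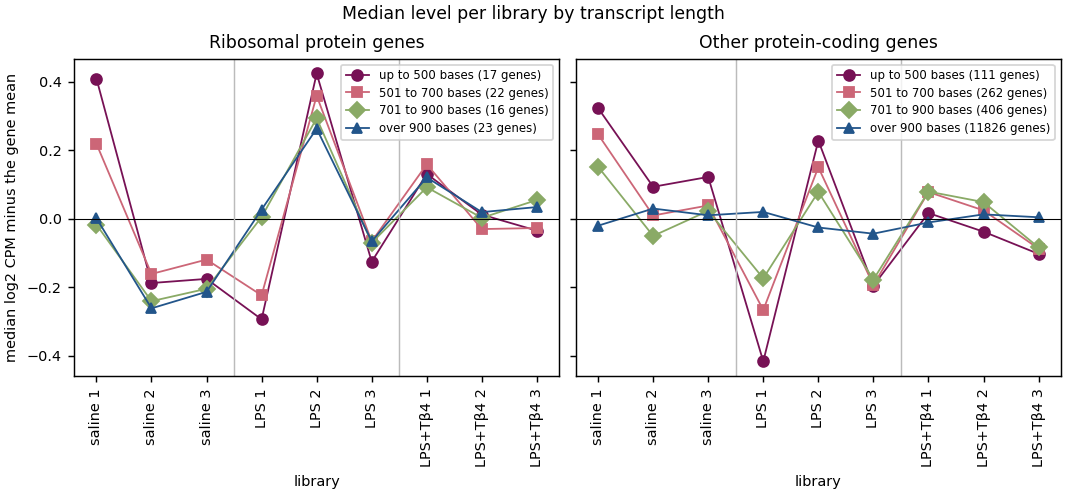
Median deviation from the gene's mean (log2 units) in each library, by transcript length class, for members and for other protein-coding genes. The shortest class spans 0.72 (members) and 0.74 (other genes) log2 units over the libraries, and the class over 900 bases spans 0.52 and 0.07.

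A fit that included the median deviation of 373 other coding transcripts of up to 700 bases as a term, chosen after these values were seen, called 26 members higher in LPS than in saline, the 4 that rose among them, and 0 lower. It called 17.4% of all genes higher and 17.9% lower in that comparison. In LPS+Tβ4 against saline it called 10 members higher, without Rpl13, and 0 lower, beside 10.5% and 9.58% of all genes. Between LPS+Tβ4 and LPS it called 0 members, beside 3.13% of all genes higher and 1.33% lower. In this fit Rps20 differed by 1.24 ± 0.16 log2 units from saline to LPS (adjusted p = 0.0023). What sets the length pattern was not tested.

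The start-site run was set beside the changes as a description. For LPS against saline, the median change was 0.04 in 12 members with the run at the exact start, 0.18 in 47 without and 0.18 in 19 with no promoter entry. Median lengths in these sets were 600, 751 and 661 bases, so the set with the run also held shorter transcripts. For LPS+Tβ4 against saline the medians were 0.06, 0.19 and 0.11. Of the named members, Rps6 holds the run and rose in LPS, and Rpl18 lacks it at the annotated start and rose too. Rps21 and Rpl35a had the lowest values for LPS against saline. They hold the run at the start shown above and lack it at their other RefSeq starts.

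Several paralogs replace or accompany a standard protein in some tissues. Rpl22l1, which can substitute for Rpl22, was at 29.2, 25.8 and 22.4 CPM in saline and 16.9, 89.3 and 64.4 in LPS (1.14 ± 0.49, adjusted p = 0.093). Of the FPKM of Rpl22 and Rpl22l1 together, it made up 20.4, 22.3 and 20.1% in saline, 17.6, 46.5 and 45.5% in LPS and 28.3, 21.4 and 22.7% in LPS+Tβ4. LPS 2 and LPS 3 stood above all other libraries, and LPS 1 below all of them. Rpl22 itself was at 166, 131 and 130 CPM in saline, 115, 150 and 113 in LPS and 139, 137 and 131 in LPS+Tβ4.

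Rpl3l, the heart and skeletal muscle form of Rpl3, was at 2.41, 1.15 and 1.20 CPM in saline, 2.07, 3.66 and 2.73 in LPS and 3.44, 4.29 and 2.29 in LPS+Tβ4, and its share of FPKM with Rpl3 was 0.864% ± 0.388, 1.23% ± 0.454 and 1.38% ± 0.496. Rps27l, a p53-induced relative of Rps27, made up 59.0% ± 4.29, 51.3% ± 15.3 and 59.7% ± 12.3 of the pair. Rpl36al, a retrogene of Rpl36a, made up 62.6% ± 1.13, 63.0% ± 4.07 and 62.6% ± 3.68 of its pair. Rpl7l1, related to Rpl7, was at 85.0, 69.8 and 73.2 CPM in saline, 62.5, 81.6 and 89.7 in LPS and 92.8, 90.6 and 76.8 in LPS+Tβ4. Rps4l, a name match that is not annotated as protein coding and so is no member, was at 9.41, 10.2 and 10.5 CPM in saline and 41.3, 23.7 and 13.0 in LPS, a rise of 1.37 ± 0.49 (adjusted p = 0.049). In LPS+Tβ4 it was at 11.2, 11.1 and 29.5 CPM, with LPS+Tβ4 3 apart from the other two, and every treated library lay above every saline library.

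Of 12 members with described roles outside the ribosome, 1 rose in LPS, Rps6, and 0 fell, beside 20.9% and 22.2% of all genes. In the other comparisons 0 changed, beside 6.83% of all genes for LPS+Tβ4 against LPS and 24.1% for LPS+Tβ4 against saline. Rpl5 and Rpl11, which bind Mdm2 and stabilise p53, had differences from saline to LPS of 0.14 ± 0.14 and 0.18 ± 0.17. Rps27l and Rpl26, also tied to p53, had -0.20 ± 0.38 and -0.04 ± 0.17. Rpl13a, of the interferon-gamma activated translation inhibitor complex, had 0.28 ± 0.21, and Rps3, which also binds NF-kappaB, had -0.02 ± 0.13. Rps27a, a ubiquitin fusion, had 0.46 ± 0.23 (adjusted p = 0.13). Rps19, mutated in Diamond-Blackfan anaemia, had -0.11 ± 0.24, Rpl38, needed for translation of Hox messages, 0.16 ± 0.33, Rps25, used by viral internal ribosome entry sites, -0.02 ± 0.25, and Rpl22, which binds other RNAs, -0.18 ± 0.15. The median of the 12 was 0.06 for LPS against saline, -0.01 for LPS+Tβ4 against LPS and 0.06 for LPS+Tβ4 against saline.

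Cytosolic ribosomal proteins with other kinds of names were close in size. Of 7 such genes, 1 rose in LPS and 0 fell, beside 20.9% and 22.2% of all genes. The gene that rose was Rplp0, the stalk protein that anchors Rplp1 and Rplp2. It was at 681, 586 and 646 CPM in saline, 948, 905 and 805 in LPS and 851, 788 and 866 in LPS+Tβ4, with a rise of 0.47 ± 0.15 to LPS (adjusted p = 0.032). All treated libraries were above all saline libraries, and LPS+Tβ4 against saline did not pass (0.39 ± 0.15, adjusted p = 0.095). Rpsa, the small-subunit protein also known as the laminin receptor, was at 520, 445 and 502 CPM in saline and 732, 699 and 563 in LPS (0.44 ± 0.16, adjusted p = 0.051). Others had 0.40 ± 0.24 for Rplp2, 0.23 ± 0.22 for the fusion gene Fau, 0.12 ± 0.13 for the scaffold Rack1 and 0.07 ± 0.26 for Rplp1. Their median was 0.23 for LPS against saline, -0.11 for LPS+Tβ4 against LPS and 0.23 for LPS+Tβ4 against saline.

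Ribosome building also takes many assembly factors that leave before the ribosome is finished. Of 36 genes of pre-ribosomal RNA processing and assembly, 18 rose and 1 fell in LPS against saline, beside the 20.9% and 22.2% of all genes given above, with a median of 0.52. In LPS+Tβ4 against saline 16 rose and 1 fell (median 0.46), beside 12.3% and 11.8%. Nop14, of the small-subunit processome, was at 16.2, 18.0 and 19.2 CPM in saline, 37.4, 35.0 and 35.0 in LPS and 33.0, 27.0 and 27.7 in LPS+Tβ4 (LPS against saline 1.01 ± 0.13, adjusted p = 0.00062). Gar1, of box H/ACA particles, rose by 1.40 ± 0.19 (adjusted p = 0.00079), and the box C/D proteins Nop58 and Nop56 by 0.90 ± 0.13 (adjusted p = 0.00090) and 1.06 ± 0.15 (adjusted p = 0.00092). The gene that fell was Utp20, of the processome, at 69.2, 64.2 and 64.2 CPM in saline and 42.6, 31.2 and 43.5 in LPS (-0.75 ± 0.16, adjusted p = 0.0052). Between LPS and LPS+Tβ4, 1 of 36 rose, Wdr12 (0.59 ± 0.14, adjusted p = 0.048), and 0 fell, beside 4.5% and 2.33% of all genes.

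Of 14 RNA polymerase I genes 3 rose in LPS and 0 fell (median 0.14), beside 20.9% and 22.2% of all genes. They were Taf1d (1.15 ± 0.19, adjusted p = 0.0018) and Taf1a (0.62 ± 0.18, adjusted p = 0.021), both of the promoter selectivity factor, and the initiation factor Rrn3 (0.41 ± 0.12, adjusted p = 0.022). Against LPS, 0 of the 14 changed in LPS+Tβ4, beside 6.83% of all genes. Against saline 2 rose (Taf1d 0.80 ± 0.19, Polr1a 0.71 ± 0.17), beside 12.3% of all genes.

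Of 17 translation factors whose messages also carry the TOP motif, 3 rose and 1 fell in LPS (median 0.10), beside 20.9% and 22.2% of all genes. Pabpc1, the poly(A)-binding protein, was at 278, 270 and 256 CPM in saline, 443, 426 and 446 in LPS and 476, 434 and 444 in LPS+Tβ4. It rose by 0.71 ± 0.12 in LPS (adjusted p = 0.0020) and by 0.75 ± 0.12 in LPS+Tβ4 (adjusted p = 0.0033), with every treated library far above saline. The nascent-chain factor Btf3 rose by 0.64 ± 0.18 and the initiation factor subunit Eif3f by 0.69 ± 0.19 (adjusted p = 0.020 for each), and the elongation factor subunit Eef1g fell, with a change of -0.36 ± 0.13 (adjusted p = 0.049). Of the 17, 0 changed between LPS and LPS+Tβ4, beside 6.83% of all genes.

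Among 19 genes of mTORC1 signalling and TOP control, 4 rose and 3 fell in LPS (median 0.21), beside 20.9% and 22.2% of all genes. Myc, a transcription factor of ribosome biogenesis genes, was at 4.89, 5.12 and 2.57 CPM in saline, 44.9, 37.3 and 48.0 in LPS and 63.0, 31.5 and 32.6 in LPS+Tβ4 (3.37 ± 0.36, adjusted p = 0.00028). The translation repressor Eif4ebp1 rose from 8.69 ± 2.76 to 32.4 ± 5.17 CPM (mean ± SD, adjusted p = 0.00063), its relative Eif4ebp2 changed by -1.31 ± 0.20 (adjusted p = 0.0014), and the mTORC1 inhibitor Ddit4 rose by 2.01 ± 0.35 (adjusted p = 0.0023). Larp1, which binds the TOP motif, was at 143, 138 and 148 CPM in saline, 199, 201 and 203 in LPS and 150, 151 and 148 in LPS+Tβ4. It rose in LPS (0.50 ± 0.10, adjusted p = 0.0044) and was lower in LPS+Tβ4 than in LPS (-0.43 ± 0.10, adjusted p = 0.041), where the LPS libraries stood clear of all 6 others. It was the 1 gene of the 19 that changed between LPS and LPS+Tβ4, beside 6.83% of all genes, so the list did not stand out there.

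**Figure D5:**
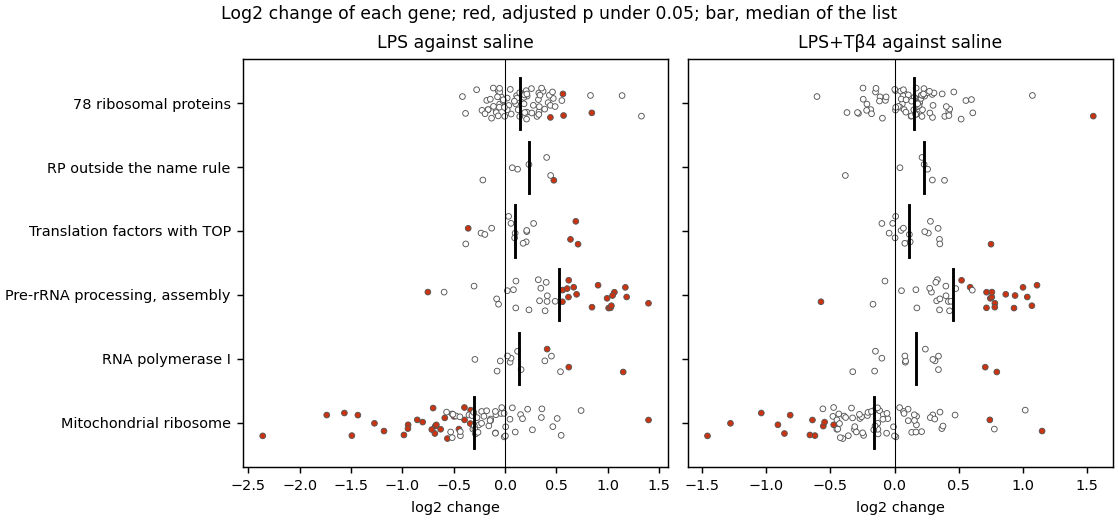
Log2 change of each gene in 6 lists of ribosome-related genes, for LPS against saline and LPS+Tβ4 against saline, with red points for an adjusted p below 0.05 and bars for list medians. In LPS against saline the medians are 0.15 for the cytosolic members, 0.52 for pre-ribosomal RNA processing and assembly and -0.31 for mitochondrial ribosomal proteins.

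Mitochondrial ribosomal proteins form the separate ribosome of that organelle. Of 77 genes 1 was higher and 26 were lower in LPS than in saline, beside 20.9% and 22.2% of all genes, with a median of -0.31 where the cytosolic members had 0.15. Mrpl49 changed by -1.18 ± 0.13, and it was higher in LPS+Tβ4 than in LPS (0.54 ± 0.13, adjusted p = 0.042). Against saline, LPS+Tβ4 had 2 of the 77 higher and 12 lower (median -0.16), beside 12.3% and 11.8% of all genes, while the 78 cytosolic members had 1 higher and 0 lower.

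How reads were divided among copies limits some members. Pseudogenes named after a member were counted for 54 members (232 pseudogenes), and they took over 10% of the combined counts for 15. Rpl17 had 81.2% of such counts on pseudogenes and Rpl21 64.8%, and both are uncertain. Rpl17 was at 50.7, 47.1 and 97.0 CPM in saline, 34.8, 87.4 and 88.3 in LPS and 56.0, 49.4 and 98.4 in LPS+Tβ4, a spread within each group that was wider than any difference between groups. Some members, 15 in all, overlap a second coding gene, such as Rpl18 with Sphk2 and Rpl12 with Lrsam1 on the opposite strand. Whether counting used strand is not given in the sources used here.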

How the data were processed

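Kidney poly(A) RNA of 9 mice was sequenced as paired-end libraries with dUTP strand marking, per the labels' protocols. The submitters' processing notes name cutadapt 1.9, HISAT2 2.2.1, StringTie 2.1.6, DESeq2, edgeR and genome build GRCm38, without roles. Not given in the sources used here were the counting program, the annotation release and the use of strand. For 34310 genes the deposited file gives raw counts made by the authors. It also gives FPKM values made by the authors for the same libraries. There were 0 value columns that could not be tied to a library. Nothing says how far beyond separate mice the libraries are independent, so p-values set each difference against the spread between these samples only.

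Counts of 15015 genes with a mean FPKM of 0.5 or more were fitted by edgeR's quasi-likelihood method (edgeR 4.0.16, R 4.3.3), 2-sided, with TMM factors and all 9 libraries in 1 fit. P-values were adjusted by Benjamini-Hochberg over all tested genes, with a threshold of 0.05. CPM uses TMM-scaled library sizes, and standard errors are the size of the log2 change divided by the square root of F. Group ranges were called apart where every CPM of one group exceeded every CPM of the other. The alternatives used DESeq2 1.42.0, limma 3.58.1 on log2(FPKM + 1) and log2(FPKM + 0.1), other filters, scalings, covariates, a replicate block and left-out libraries. The fitting script was tested on simulated data. Other values used Python 3.11.15, pandas 2.3.3, numpy 2.4.6 and matplotlib 3.10.9. Lengths are from GENCODE, build GRCm38, and promoters from RefSeq, GRCm38.p6.

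Genes were named by rule: the 3 most abundant members of each subunit, members that passed, paralogs, members with extra roles, ribosomal proteins outside the name rule, and up to 4 genes with the smallest adjusted p of each related list. Exceptions are stated in the text. Members and lists were chosen with earlier results of these data known. Some genes are counted but not reported here by name, and 2 members are left out of the plots that label genes.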

Additional observations from a re-analysis of the deposited data

How the results depend on the processing

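No member reversed direction after passing, and 25 alternatives were run. For LPS against saline, members higher numbered 4 as reported. There were 16 with library totals alone, 15 with DESeq2, 15 with limma on log2(FPKM + 1) and 15 on log2(FPKM + 0.1). There were 6 with a mean FPKM of 5 or more, 6 with median-of-ratios scaling, 2 with only the 6 libraries compared, 0 with the urothelial term and 1 to 10 with 1 library left out. Alternatives chosen after seeing the data gave 13 without both number 3 libraries of the LPS groups, 6 with the uroplakin term and 26 with the short-transcript term. Members lower numbered 0, and 0 to 1 with 1 library left out. For LPS+Tβ4 against LPS, 0 members were higher in each alternative, and 0 to 1 were lower with 1 library left out. For LPS+Tβ4 against saline, members higher numbered 1 as reported. There were 0 with no filter beyond 1 count, 4 with a mean FPKM of 5 or more (77 members), 0 with filterByExpr, 2 with median-of-ratios scaling, 13 with library totals alone and 0 with the dominant 20 genes left out. DESeq2 gave 9, limma 13 and 14 with the larger and smaller pseudocount, and only the 6 libraries compared gave 7. There were 3 without both number 3 libraries, 10 with the short-transcript term and 0 to 6 with 1 library left out. The cause of these moves was not tested. Shares of all genes called are given above for DESeq2, limma on log2(FPKM + 1) and the short-transcript term. That term cannot be fully separated from treatment. For the other alternatives they are not given, so those moves cannot be read as particular to the members. Limma on log2(FPKM + 1) put the median of all genes at 0.11 for LPS against saline and 0.14 for LPS+Tβ4 against saline, and that of members at 0.29 and 0.36.

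Mice share only a number between groups: same-numbered libraries had correlations of deviations of -0.289, 0.107 and -0.109 between saline and LPS, and -0.283, -0.263 and -0.629 between LPS and LPS+Tβ4. With the replicate block, members higher numbered 3 for LPS against saline (2 of the 4, with Rpl13), 0 for LPS+Tβ4 against LPS and 1 for LPS+Tβ4 against saline, and 0 were lower. With 3 mice a group, the median standard error of members was 0.19 log2 units, which limits what could be detected.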
